A study of Mus musculus with 12 samples.

Results

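The interaction of cisplatin and dichloroacetate is the difference between 2 cisplatin responses measured in mouse kidney RNA, one in animals given dichloroacetate and one in animals given saline. It was computed for each gene as (Cisplatin+Dichloroacetate minus Dichloroacetate) minus (Cisplatin minus Saline) on the log2 scale. All 12 libraries of the series entered the estimate, with 3 in each of the 4 groups. Of 28991 genes in the count table, 20370 passed the filter on low counts and were tested.

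Cisplatin is a platinum drug that forms adducts on DNA. Proximal tubule cells take it up through organic cation transporters, and its dose-limiting toxicity in the kidney falls mainly on these cells, which depend on mitochondrial oxidation of fatty acids and other fuels. Dichloroacetate inhibits the pyruvate dehydrogenase kinases and so keeps pyruvate dehydrogenase, the entry of pyruvate into the citric acid cycle, in its active form. An interaction in a factorial design of this kind asks, gene by gene, whether the change after one agent depends on the presence of the other.

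The animals were male BALB/c mice aged 8 weeks, and each library was made from total kidney RNA. Saline mice received daily intraperitoneal saline for 6 days. Dichloroacetate mice received 250 mg/kg of the drug daily for 6 days. Cisplatin mice had saline for 5 days, then a single 20 mg/kg dose of cisplatin, and were killed 24 h later. Cisplatin+Dichloroacetate mice, the combination group, had dichloroacetate for 5 days, then both drugs once at the same doses, and were killed 24 h later. The labels number the samples of a group as replicates without saying that they came from separate animals, so p-values measure the spread between these samples. They describe 1 dose of each drug, 1 time point and 1 sex, and state no interval before killing for the groups without cisplatin.

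Deposited totals ran from 29505929 to 62237514 counts a library. The 6 libraries with cisplatin had lower totals (at most 35925471) than the 6 without it (at least 38236592). Values below are CPM, the count relative to the TMM-scaled library total in the usual unit of that name, unless a log2 difference is named. The first principal component of log2 CPM held 68.9% of the variance, and all 14 fixed proximal tubule markers, among them the endocytic receptor gene Lrp2, were detected in every group. In bulk RNA, fewer cells of a type and less RNA per cell cannot be told apart.

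The cisplatin response was smaller with dichloroacetate for most genes with a called interaction, in both directions of change. A call is a Benjamini-Hochberg adjusted p under 0.05 from edgeR's quasi-likelihood test over all genes tested. The interaction was called for 3783 genes (18.6%), positive for 2327 (11.4%) and negative for 1456 (7.15%). Counts on the gene lists below are to be read beside these shares. The median size of a called interaction was 0.52 log2, against 0.23 over all genes tested, and 545 calls reached 1 log2, of which 325 were positive and 220 negative. A positive value means a smaller fall or a larger rise after cisplatin when dichloroacetate was given. Scaling by library totals in place of trimmed means of M values (TMM) gave 1712 positive and 2383 negative calls, so the share of positive calls was 41.8% in place of 61.5%.

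Of the 3783 genes, 1937 had both cisplatin responses called in the same direction with the smaller one under dichloroacetate. These kept a median of 46.9% of the log2 response (quartiles 37.5% and 56.4%). They were selected for a smaller response, so this share does not describe all responding genes. A further 1451 had a called response without dichloroacetate alone, of which 647 rose and 804 fell. The response was called with dichloroacetate alone for 211 genes and in opposite directions for 108. It was larger with dichloroacetate for 55, and neither response was called for 21. That last count was 6 without Cisplatin replicate 1, 10 without Saline replicate 2 or Cisplatin+Dichloroacetate replicate 1, 13 without Cisplatin+Dichloroacetate replicate 3, 34 without Cisplatin replicate 3, 11 under scaling by library totals and 43 with DESeq2. Leaving out Cisplatin replicate 1 gave 1538 positive calls and 947 genes with a response called without dichloroacetate alone. Leaving out Cisplatin+Dichloroacetate replicate 1 or 3 gave 128 or 136 genes with a response called with dichloroacetate alone.

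**Figure D1:**
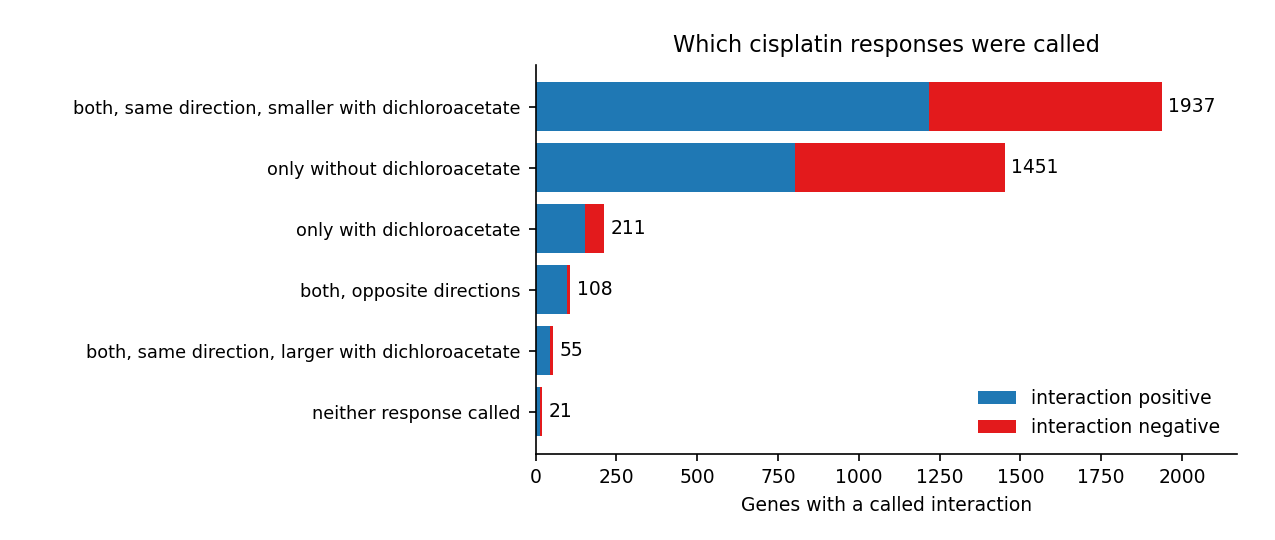
Number of genes with a called interaction (horizontal axis) by which of the 2 cisplatin responses were called (vertical axis), with positive and negative interactions stacked in 1 bar. The bars for a smaller response (1937 genes) and for a response called without dichloroacetate alone (1451 genes) hold most of the calls.

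Each response by itself covered much of the transcriptome. Without dichloroacetate cisplatin raised 6048 genes (29.7%) and lowered 6196 (30.4%). With dichloroacetate it raised 4377 (21.5%) and lowered 3909 (19.2%). The standard deviation of the log2 responses over all genes was 0.926 without dichloroacetate and 0.672 with it. The 2 responses share no library, were normalised together, and had a Pearson correlation of 0.841 across 20370 genes, which are not independent replicates. Genes raised without dichloroacetate had median responses of 0.52 without and 0.29 with it, and genes raised with dichloroacetate had medians of 0.50 without and 0.41 with it. For lowered genes the corresponding medians were -0.68 and -0.32 when chosen on the first response, and -0.82 and -0.56 when chosen on the second. The shift therefore has the same direction whichever response selects the genes, and its size depends on that choice. Scaling by library totals moved the median response of all genes from -0.01 to 0.26 without dichloroacetate and from 0.01 to 0.20 with it, and then 9749 genes rose and 3596 fell without dichloroacetate, and 8458 rose and 2225 fell with it.

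**Figure D2:**
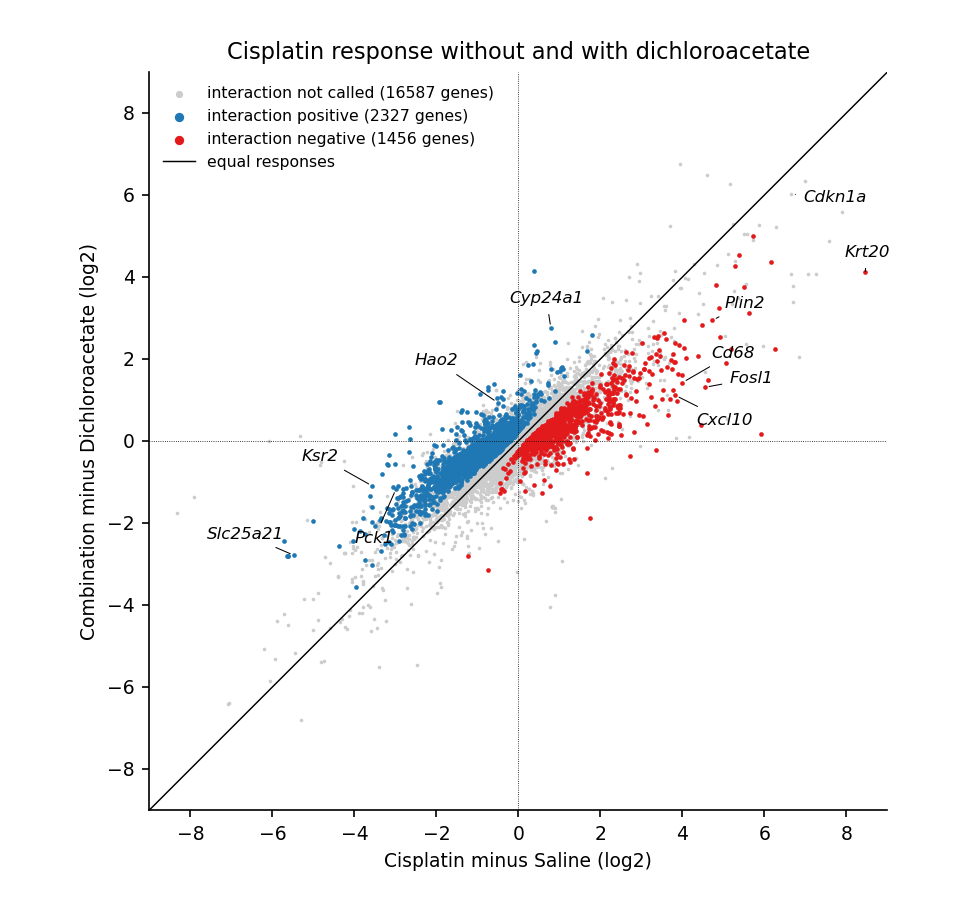
Cisplatin response of each of 20370 genes without dichloroacetate (horizontal axis, log2) against the response with it (vertical axis, log2). Called interactions lie on the side of the diagonal of equal responses nearer to a zero response for most genes, with Krt20 at 8.46 without and 4.13 with dichloroacetate.

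The same quantity can be read as a difference between 2 dichloroacetate effects. Dichloroacetate without cisplatin raised 26 genes (0.128%) and lowered 37 (0.182%). Those counts moved with single libraries. The raised count was 72 without Saline replicate 3, 42 without Dichloroacetate replicate 2, and 5 to 9 without Saline replicate 1 or 2, Dichloroacetate replicate 1 or 3, Cisplatin replicate 2 or Cisplatin+Dichloroacetate replicate 1. The lowered count was 7 to 24 without any of the same libraries except Saline replicate 3 and Dichloroacetate replicate 2. Dichloroacetate with cisplatin raised 3688 (18.1%) and lowered 2753 (13.5%), or 2317 and 5134 under scaling by library totals. Among the 3783 genes with a called interaction, the dichloroacetate effect was called with cisplatin only for 3432, without cisplatin only for 15, in both settings for 23 and in neither for 313. All 23 had opposite signs in the 2 settings. The median absolute effect of dichloroacetate over the 3783 genes was 0.10 log2 without cisplatin and 0.46 with it.

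Krt20, which encodes a keratin of injured tubule cells and of gut epithelium, had the most negative interaction among the genes named here. It stood at 0.0664, 0.154 and 0.144 CPM with saline, 0.227, 0.498 and 0.0270 with dichloroacetate, 39.6, 46.0 and 45.7 with cisplatin, and 4.23, 4.10 and 5.12 with the combination. Every cisplatin library lay above every combination library, and both groups lay above all libraries without cisplatin. The log2 response was 8.46 without and 4.13 with dichloroacetate, an interaction of -4.33 ± 0.65 (SE, adjusted p = 0.000678). The gene lies on chromosome 11, at chr11:99428403-99438150 of GRCm38.

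Fosl1, which encodes the AP-1 subunit FRA1, was at 0.709, 0.633 and 0.776 CPM with saline and 0.559, 0.597 and 0.647 with dichloroacetate. It reached 16.6, 17.95 and 14.9 CPM with cisplatin and 1.53, 1.52 and 1.40 with the combination. No library of one cisplatin-treated group came near the other group, and the interaction was -3.24 ± 0.20 (adjusted p = 9.22e-06). Atf3, a stress-induced leucine zipper factor, was at 18.4, 15.4 and 9.05 CPM with cisplatin and 3.12, 2.53 and 4.45 with the combination, an interaction of -2.38 ± 0.47 (adjusted p = 0.00387). Egr1, an immediate early zinc finger factor, was at 82.6, 51.7 and 39.5 CPM with cisplatin and 11.3, 10.9 and 11.97 with the combination (interaction -2.07 ± 0.42). For both genes the lowest cisplatin library lay above the highest combination library, and Cisplatin replicate 3 was the lowest of its group. Smpdl3b, a membrane phosphodiesterase of the sphingomyelinase family, was at 38.5, 34.2 and 33.6 CPM with cisplatin and 6.08, 6.49 and 9.90 with the combination (interaction -2.37 ± 0.29). Sprr1a, a small proline-rich protein of stressed epithelium, was at 9.57, 9.99 and 7.70 CPM with cisplatin and 2.08, 1.68 and 1.61 with the combination, and the combination values overlapped those without cisplatin (interaction -2.09 ± 0.27).

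The early response list, which holds Fos and Jun family members, Egr and related factors, had a called interaction for 14 of 23 tested genes, all negative, against 7.15% of all genes. Its median response was 1.81 log2 without and 1.11 with dichloroacetate, and its median interaction was -0.90 against 0.03 over all genes. Jun had an interaction of -1.24, Junb -1.30 and Myc, the growth-related transcription factor, -1.30. Jun averaged 104 CPM with cisplatin and 47.2 with the combination, against 19.5 with saline and 20.8 with dichloroacetate.

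On the cytokine and NF-kB list 13 of 31 tested genes had a called interaction, all negative, against 7.15% of all genes called in that direction, and 18 were not called. The list's median interaction was -0.80. Cxcl1, the neutrophil chemoattractant, was at 44.8, 47.9 and 34.5 CPM with cisplatin and 11.9, 7.85 and 11.9 with the combination (interaction -2.50 ± 0.36, adjusted p = 0.000545). Cxcl10, an interferon-induced chemokine, was at 22.4, 20.1 and 10.5 CPM with cisplatin and 2.93, 2.28 and 3.90 with the combination (interaction -2.72 ± 0.57, adjusted p = 0.00548). Neither chemokine overlapped between the cisplatin-treated groups, and both were at most 2.18 CPM in every library without cisplatin. Among regulators of the pathway, Rela, a subunit of NF-kB, had an interaction of -0.91, Nfkb2 of -1.06 and Tnfaip3, a feedback inhibitor, of -1.05.

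Cd68, a lysosomal membrane protein used as a macrophage marker, was at 41.6, 32.7 and 25.02 CPM with cisplatin and 4.16, 4.10 and 6.31 with the combination. With saline it was at 2.66, 1.94 and 1.52 CPM and with dichloroacetate at 2.17, 1.64 and 1.51. The groups with cisplatin did not overlap (interaction -2.58 ± 0.35, adjusted p = 0.000383). Of 18 macrophage markers tested, Cd68 and Cd14, the lipopolysaccharide co-receptor, had a called interaction, both negative. Over all genes 7.15% were negative and 18.6% were called. The count is near those shares, so it is no result about macrophage markers. Cd14 is named after its values were seen, at -0.98 log2. Summed over the 18 markers the level was 187 to 228 CPM with cisplatin, 154 to 179 with the combination, 222 to 257 with saline and 179 to 301 with dichloroacetate, and no marker was at 0 throughout. Without Cd68 and Cd14, an alternative added after seeing the data, the other 16 summed to 145 to 170 CPM with cisplatin and 137 to 165 with the combination, which overlap. Neutrophil markers summed to 27.2 to 32.1 CPM with cisplatin and 19.6 to 23.9 with the combination, while lymphocyte markers summed to 7.35 to 8.76 and 7.16 to 8.04 CPM. Ly6g alone, named after its values were seen, made up most of each neutrophil sum. It was at 23.05, 26.9 and 22.4 CPM with cisplatin and 15.9, 17.9 and 20.7 with the combination. edgeR called 0 of 6 tested neutrophil and 0 of 7 lymphocyte markers, against 18.6% of all genes. In each set 1 marker had an unadjusted p under 0.05. DESeq2 called 1 neutrophil marker and limma-voom none. The part of these cells in the smaller rises was not tested. Icos, a T cell costimulatory receptor, was at 4.86, 6.21 and 5.50 CPM with cisplatin and 1.92, 2.34 and 3.56 with the combination, without overlap (interaction -2.30 ± 0.45).

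Upstream sequence is shown for the 6 genes of largest absolute interaction among those named on size that have an entry in the RefSeq promoter table (GRCm38.p6). Each run gives the 250 bases before the annotated start, 5′ to 3′ on the gene's strand, with motif matches in capitals. For 5 of the 6 the bases after the start were found in an annotated transcript of the gene. Krt20, Cxcl10, Cd68 and Cxcl1 had a smaller rise, and Slc25a21 and Ksr2 a smaller fall. For Slc25a21, which has 2 starts in the table, the first listed was taken.

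Krt20 chr11:99438154-99438403 (- strand): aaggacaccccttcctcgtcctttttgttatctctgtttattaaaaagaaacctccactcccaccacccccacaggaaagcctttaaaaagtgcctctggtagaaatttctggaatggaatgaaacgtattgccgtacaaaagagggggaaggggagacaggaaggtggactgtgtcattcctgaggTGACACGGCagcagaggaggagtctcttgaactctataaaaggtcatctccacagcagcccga
Cxcl10 chr5:92348890-92349139 (- strand): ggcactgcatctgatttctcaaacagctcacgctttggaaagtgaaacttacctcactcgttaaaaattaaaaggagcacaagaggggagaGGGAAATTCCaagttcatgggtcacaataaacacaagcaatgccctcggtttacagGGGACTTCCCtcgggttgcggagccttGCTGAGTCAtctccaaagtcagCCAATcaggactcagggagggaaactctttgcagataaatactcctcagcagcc
Slc25a21 chr12:57197473-57197722 (- strand): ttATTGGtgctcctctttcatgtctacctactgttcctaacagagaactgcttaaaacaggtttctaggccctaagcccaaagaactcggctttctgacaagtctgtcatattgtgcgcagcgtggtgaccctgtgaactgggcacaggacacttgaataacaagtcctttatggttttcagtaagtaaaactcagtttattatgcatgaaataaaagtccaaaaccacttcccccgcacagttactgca
Cd68 chr11:69666171-69666420 (- strand): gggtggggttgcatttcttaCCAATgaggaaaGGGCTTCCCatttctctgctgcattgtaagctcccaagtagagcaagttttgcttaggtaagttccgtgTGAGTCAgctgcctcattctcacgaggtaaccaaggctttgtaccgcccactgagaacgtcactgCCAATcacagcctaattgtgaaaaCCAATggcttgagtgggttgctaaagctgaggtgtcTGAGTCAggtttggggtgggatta
Cxcl1 chr5:90890995-90891244 (+ strand): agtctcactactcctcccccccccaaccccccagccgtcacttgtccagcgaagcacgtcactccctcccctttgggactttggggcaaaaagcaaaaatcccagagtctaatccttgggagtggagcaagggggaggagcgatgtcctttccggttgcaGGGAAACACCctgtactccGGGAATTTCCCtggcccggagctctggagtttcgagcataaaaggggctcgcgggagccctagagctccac
Ksr2 chr5:117413752-117414001 (+ strand): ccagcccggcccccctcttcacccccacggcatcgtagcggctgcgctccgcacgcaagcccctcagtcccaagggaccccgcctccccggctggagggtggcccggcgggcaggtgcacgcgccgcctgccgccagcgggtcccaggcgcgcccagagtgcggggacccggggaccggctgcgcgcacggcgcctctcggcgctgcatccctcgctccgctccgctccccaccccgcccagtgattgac

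Motifs were searched on both strands. The AP-1 motif TGANTCA occurred upstream of Cd68, at 2 places, and of Cxcl10, against 6.87% of 27025 promoters over the same window. The antioxidant response motif TGACNNNGC occurred upstream of Krt20 and Cxcl10 (10.1% of promoters), and in Cxcl10 it overlaps the AP-1 match. The NF-kB-like motif GGGANNNCC occurred upstream of Cxcl10 and Cd68 (15.5%). Its form with 1 more base was added after the sequences were seen and occurred upstream of Cxcl10 and Cxcl1 (17.3%), overlapping the shorter form in Cxcl10. CCAAT occurred upstream of Cxcl10, Cd68 and Slc25a21 (34.5%). The cAMP response element TGACGTCA (1.62%), the E-box CACGTG (6.05%) and the C/EBP-ATF composite TGATGNAA (3.53%) were in none of the 6 windows, and Ksr2 had no match to any motif.

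**Figure D3:**
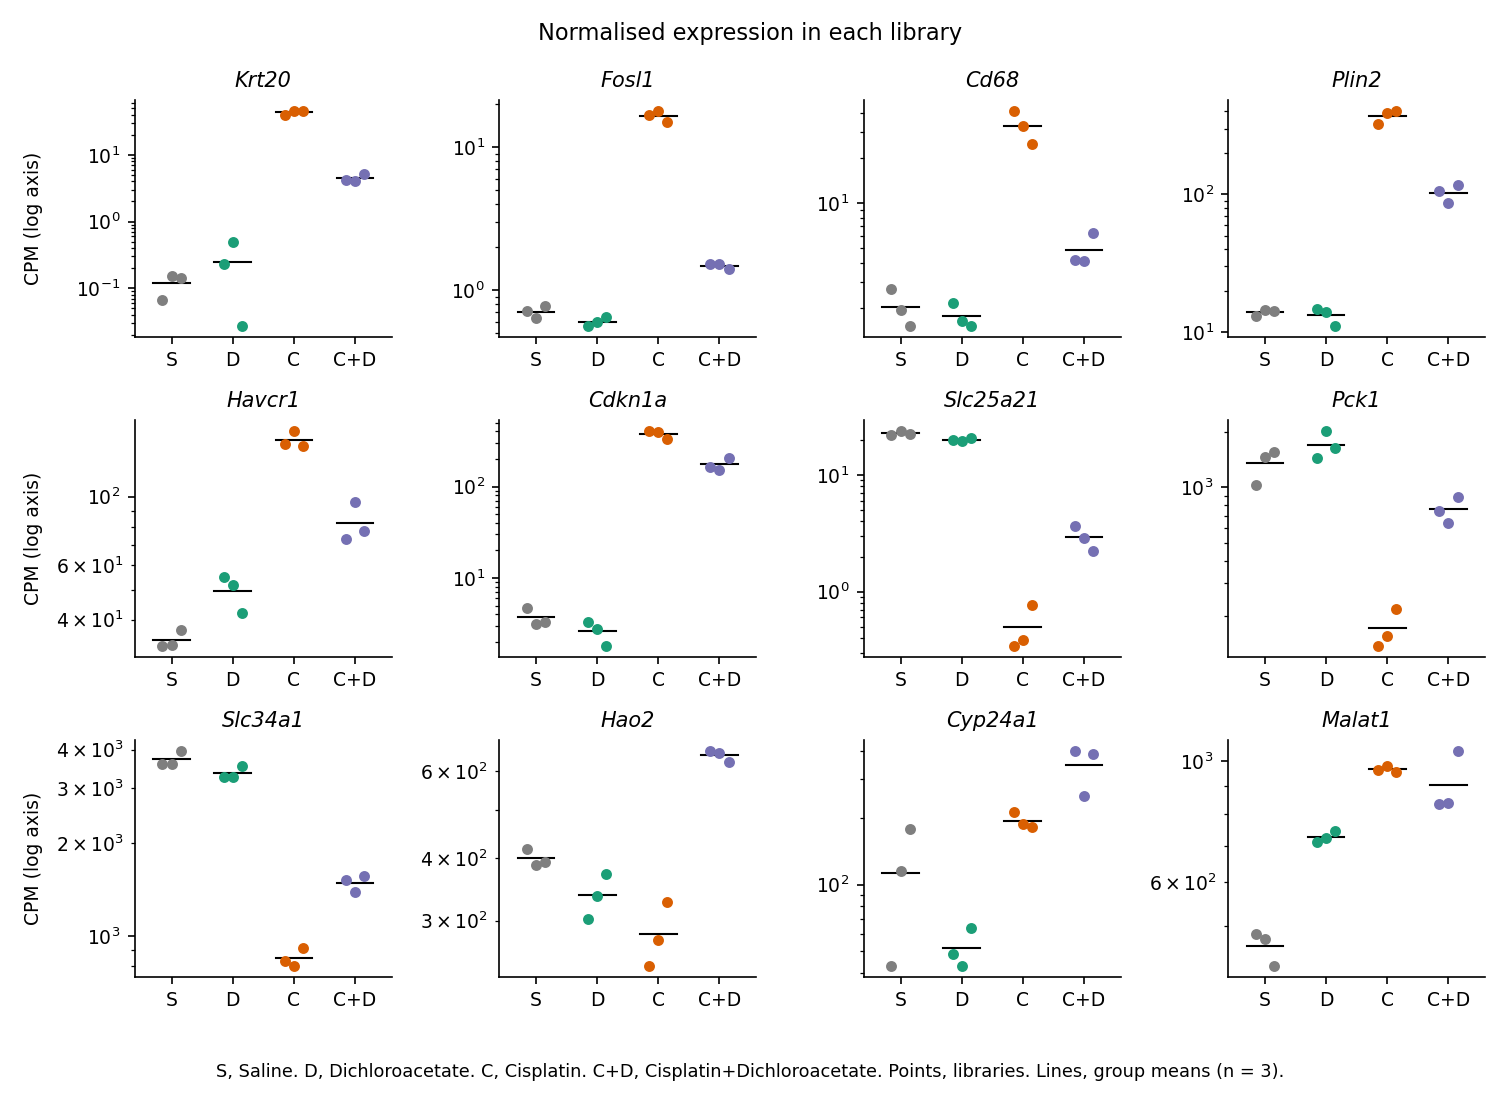
CPM of 12 genes in each of the 12 libraries (vertical axis, log scale, 1 panel a gene) by group (horizontal axis), with lines at group means. The combination libraries lie between the cisplatin libraries and those without cisplatin for Krt20, Fosl1, Plin2, Havcr1, Slc25a21 and Slc34a1, and above all others for Hao2 and Cyp24a1.

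Of 35 tested genes on the tubular injury list 14 had a negative interaction, 2 a positive one and 19 none that was called. Over all genes 7.15% were negative and 11.4% positive. The list had median responses of 0.92 log2 without and 0.55 with dichloroacetate. Havcr1, which encodes kidney injury molecule 1, was at 32.8, 33.0 and 37.0 CPM with saline, 55.0, 51.8 and 41.97 with dichloroacetate, 148, 164 and 146 with cisplatin, and 72.8, 96.4 and 77.6 with the combination. The 4 groups did not overlap (interaction -1.43 ± 0.16, adjusted p = 9.93e-05). Tnfrsf12a, the receptor of the cytokine TWEAK, had responses of 4.04 and 2.28 log2 (interaction -1.76) and Klf6, an injury-induced zinc finger factor, of 2.32 and 1.04 (interaction -1.28). Lcn2, which encodes the injury marker NGAL, was at 4.57, 8.92 and 6.70 CPM with cisplatin and 4.52, 5.41 and 4.08 with the combination, overlapping, and its interaction of -0.59 ± 0.42 did not pass the test (adjusted p = 0.369). The 2 injury genes with positive interactions were Dcdc2a and Itgb6, the second named after its values were seen (0.40), and 1 of them was left without any of 8 libraries.

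Targets of p53, the DNA damage factor, were strongly induced in both settings. Of 40 tested targets 32 rose without dichloroacetate and 30 with it. A negative interaction was called for 20, against 7.15% of all genes, and a positive one for 3. The median interaction was -0.45. Mdm2, the p53 ubiquitin ligase, had responses of 2.28 and 1.54 log2 (interaction -0.74, adjusted p = 0.000421). Btg2, an antiproliferative gene, had an interaction of -1.44, Ddit4, an inhibitor of mTORC1, of -1.18 and Aen, a p53-induced nuclease, of -0.65. Cdkn1a, whose product p21 arrests the cell cycle, was at 408, 391 and 332 CPM with cisplatin and 165, 153 and 208 with the combination. Those groups did not overlap, and dichloroacetate without cisplatin had 3.34, 2.76 and 1.81 CPM against 4.72, 3.18 and 3.31 with saline. With responses of 6.65 and 6.02 log2, the interaction of Cdkn1a was -0.63 ± 0.27 and did not pass the test (adjusted p = 0.123). The 3 targets with positive interactions, named after their values were seen, were the DNA repair gene Mgmt (1.67), Sesn1 (0.45) and Ddb2 (0.34), and scaling by library totals left 1 of them.

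Among 23 targets of NRF2, the antioxidant response factor, 12 had a negative interaction, against 7.15% of all genes. A positive one was called for 1, Abcc4, named after its values were seen. Scaling by library totals left 0 positive, and omitting Cisplatin+Dichloroacetate replicate 2 or Saline replicate 1 gave 2. Hmox1, the haem-degrading enzyme, had responses of 2.87 and 1.21 log2 (interaction -1.66, adjusted p = 5.83e-05). Srxn1, sulfiredoxin, had responses of 2.81 and 1.53 (interaction -1.28 ± 0.09) and Txnrd1, thioredoxin reductase, of 2.35 and 1.33 (interaction -1.02). The heat shock list had calls for 7 of 20 genes, all negative, against 7.15% of all genes, among them Hspb1 (-1.23), Dnajb4 (-1.02) and Bag3 (-0.80). Without Saline replicate 3 that count was 11. The integrated stress response list had 8 of 22 negative, against 7.15% of all genes, among them Cebpb (-1.40) and Mthfd2, a mitochondrial folate enzyme (-1.18). It had 2 positive, Cth and Vldlr, named after their values were seen. Endoplasmic reticulum chaperone and degradation genes had 1 negative call in 22, Dnajb9 (-0.50), and 2 positive, Atf6 (0.42) and Herpud1 (0.90). These calls did not exceed the 18.6% of all genes, so their number is no result about the list. The negative count was 4 without Saline replicate 3 and 3 under scaling by library totals.

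**Figure D4:**
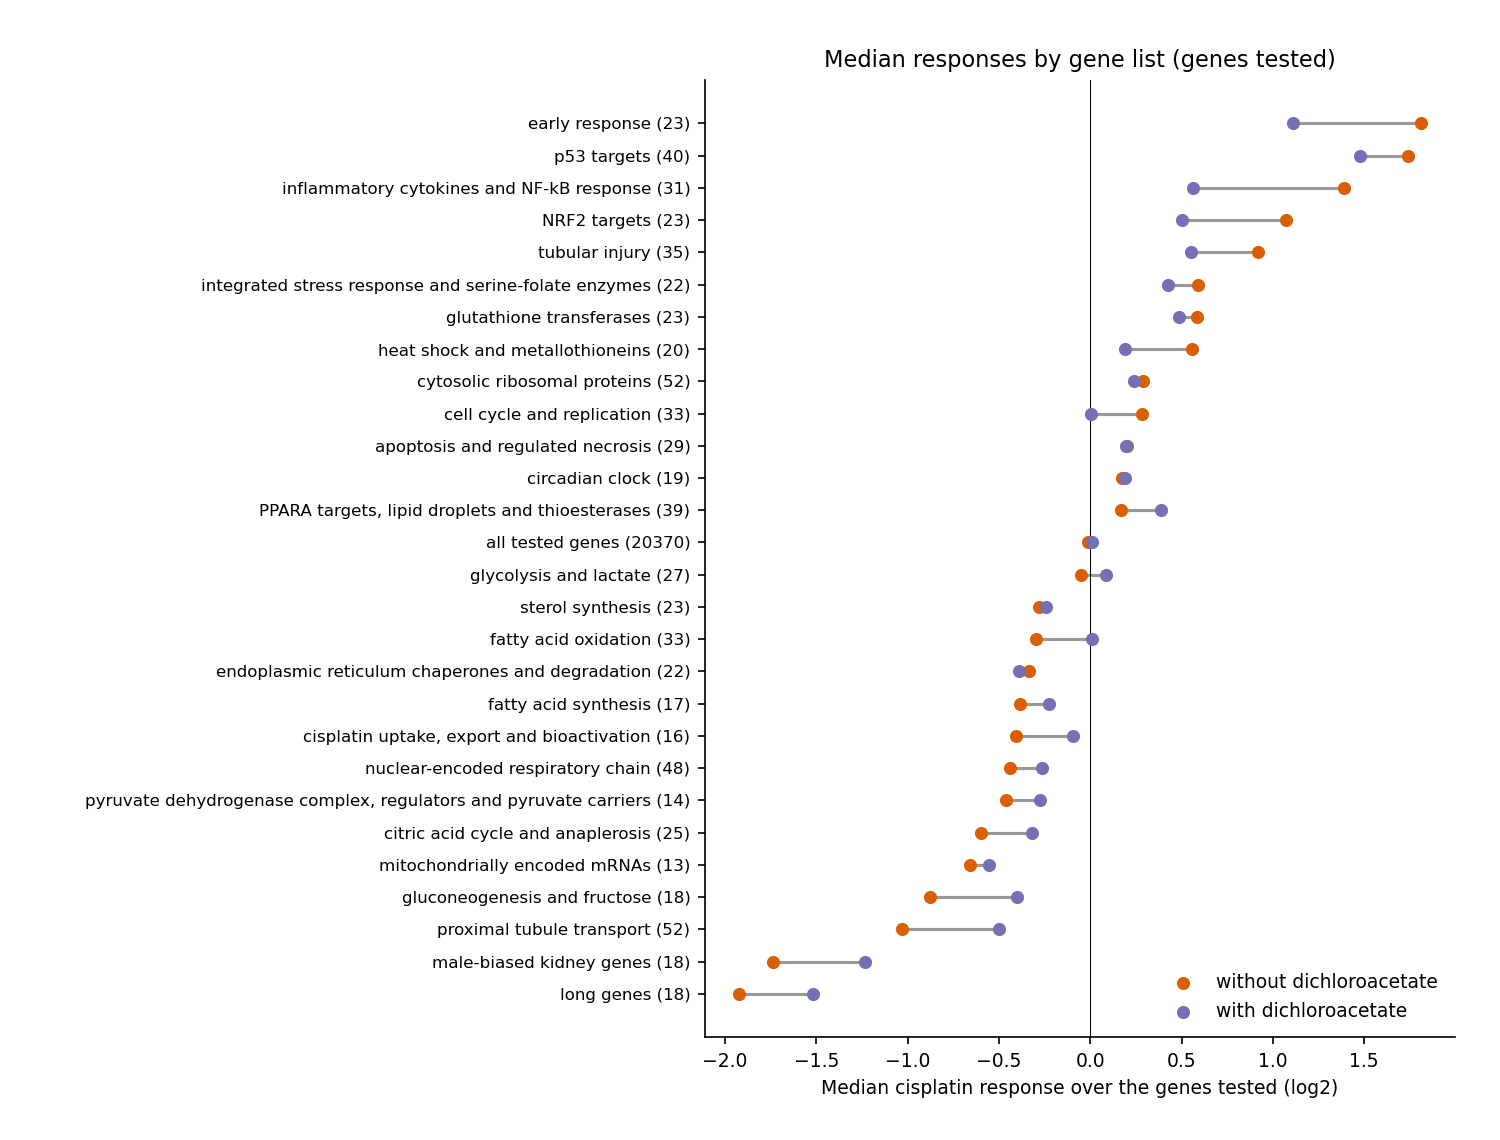
Median cisplatin response (horizontal axis, log2) of the genes tested in each of 27 pathway lists and over all genes (vertical axis, genes tested in brackets), without and with dichloroacetate. The lists with the highest medians, early response (1.81 and 1.11) and p53 targets (1.74 and 1.48), and those with the lowest, such as proximal tubule transport (-1.03 and -0.50), have medians nearer to 0 with dichloroacetate.

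Genes of the target of dichloroacetate moved in different directions. Pdk4, a pyruvate dehydrogenase kinase induced by fasting and fatty acids, was at 139, 124 and 84.1 CPM with cisplatin and 29.3, 26.0 and 34.8 with the combination, against 10.2, 18.1 and 9.55 with saline and 13.3, 6.17 and 7.55 with dichloroacetate. The cisplatin-treated groups did not overlap, and the interaction was -1.47 ± 0.40 (adjusted p = 0.0212). The call was lost without Dichloroacetate replicate 1 (-1.05, adjusted p = 0.0767), Cisplatin replicate 1 (-1.34), Cisplatin replicate 2 (-1.41) or Cisplatin+Dichloroacetate replicate 2 (-1.37). Pdk2, a kinase sensitive to dichloroacetate, went the other way, at 87.98, 79.9 and 91.6 CPM with cisplatin and 149, 147 and 148 with the combination, against 221, 238 and 231 with saline and 190, 230 and 227 with dichloroacetate. It thus had a smaller fall, with an interaction of 0.87 ± 0.10 (adjusted p = 0.000163). Pdk1 had a value of 0.35 ± 0.14 (adjusted p = 0.103) and Pdk3 of -0.04 ± 0.09 (adjusted p = 0.807), neither past the test. Pdk1 passed it without Cisplatin replicate 3 (0.45).

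Of 14 genes of the pyruvate dehydrogenase complex, its regulators and the pyruvate carriers, 4 had a positive interaction, namely Pdk2, Pdp2, Pdha1 and Mpc1, and 1 a negative one, Pdk4. Over all genes 11.4% were positive and 7.15% negative. Pdha1, the catalytic subunit, had responses of -0.77 and -0.46 log2 (interaction 0.32). The count of 4 was 2 without Cisplatin replicate 1 or 2, Cisplatin+Dichloroacetate replicate 2 or 3, Dichloroacetate replicate 1, or Saline replicate 2 or 3. Gstz1, the glutathione transferase that degrades dichloroacetate, was at 283, 326 and 318 CPM with saline, 295, 314 and 337 with dichloroacetate, 137, 135 and 152 with cisplatin, and 236, 225 and 241 with the combination. Its fall was smaller with dichloroacetate (interaction 0.70 ± 0.10), without overlap of the cisplatin-treated groups. Of 23 glutathione transferase genes 6 had a called interaction, all positive, against 11.4% of all genes, and scaling by library totals added 2 negative calls.

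Plin2, the coat protein of lipid droplets, was at 13.2, 14.4 and 14.3 CPM with saline, 14.8, 14.1 and 11.1 with dichloroacetate, 323, 388 and 404 with cisplatin, and 106, 86.2 and 117 with the combination. The cisplatin and combination libraries were far apart (interaction -1.79 ± 0.18, adjusted p = 6.98e-05), and both lay above all other libraries. On the list of PPARA targets, lipid droplet proteins and thioesterases 13 of 39 genes had a positive interaction, against 11.4% of all genes. The 4 negative ones were Plin2, Pdk4, Cidec and Hilpda, of which Cidec and Hilpda are lipid droplet proteins named after their values were seen. DESeq2 and limma-voom each called 2 of the 4. The negative count was 1 without Cisplatin replicate 1 or 2, Cisplatin+Dichloroacetate replicate 2 or Dichloroacetate replicate 1, and to 2 without Cisplatin+Dichloroacetate replicate 3 or Saline replicate 1 or 3. Plin5, a droplet protein of oxidative tissues, had responses of -1.07 and 0.13 (interaction 1.20). Cyp4a14, a PPARA target, was at 28.3, 50.4 and 109 CPM with cisplatin and 67.6, 64.4 and 52.4 with the combination, overlapping, with a value of 0.39 ± 0.56 that did not pass the test (adjusted p = 0.692).

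Fatty acid oxidation genes had a called interaction for 15 of 33, all positive, against 11.4% of all genes. The median response of the list went from -0.29 log2 without to 0.01 with dichloroacetate. Cpt1a, the carnitine palmitoyltransferase that admits fatty acids to mitochondria, had responses of -0.90 and -0.31 (interaction 0.59), and Acox2, a peroxisomal oxidase, of -1.03 and -0.18 (interaction 0.85). Acaa1a and Acaa1b, peroxisomal thiolases with near-identical sequences that may share reads, had values of 0.52 and 0.55. Fatty acid synthesis had 5 positive calls in 17, against 11.4% of all genes, led by Acaca, acetyl-CoA carboxylase (0.87), and Acss2 (0.63). That count was 2 without Cisplatin replicate 2, Cisplatin+Dichloroacetate replicate 3 or Dichloroacetate replicate 1 or 2, and 3 without Cisplatin replicate 1, Cisplatin+Dichloroacetate replicate 1 or 2, Dichloroacetate replicate 3 or Saline replicate 2. It was 2 under scaling by library totals and 3 with DESeq2's size factors or with no filter.

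Gluconeogenesis and fructose metabolism, which the kidney shares with the liver, had a called interaction for 13 of 18 genes, all positive, against 11.4% of all genes. Pck1, the rate-controlling phosphoenolpyruvate carboxykinase, was at 1028, 1468 and 1555 CPM with saline, 1441, 2038 and 1634 with dichloroacetate, 137, 156 and 219 with cisplatin, and 743, 641 and 891 with the combination. The lowest combination library lay above the highest cisplatin library by a wide margin (interaction 1.82 ± 0.27, adjusted p = 0.000697). Pcx, pyruvate carboxylase, had an interaction of 1.09, Slc2a5, a fructose transporter, of 1.05 and Fbp1, fructose bisphosphatase, of 0.89. The list's median response was -0.88 log2 without and -0.40 with dichloroacetate.

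The citric acid cycle list had calls for 16 of 25 genes, all positive, against 11.4% of all genes, with a median interaction of 0.33. Suclg2, a succinyl-CoA ligase subunit, had responses of -1.78 and -1.05 (interaction 0.73). Idh1, the cytosolic isocitrate dehydrogenase, fell without dichloroacetate (-0.34) and rose with it (0.35), an interaction of 0.69 (adjusted p = 0.000423). Nuclear-encoded respiratory chain genes fell in 46 of 48 cases without dichloroacetate and in 32 with it. Of these 48, 14 had a called interaction, all positive, against 11.4% of all genes, with small values such as 0.35 for Ndufa9 and 0.30 for Atp5a1. That count was 2 without Cisplatin replicate 1 and 31 without Saline replicate 1. It was 5 to 8 without Cisplatin replicate 2, any combination library, Dichloroacetate replicate 1 or 2, or Saline replicate 2 or 3, and 7 or 8 with library totals or DESeq2's size factors. The 13 mitochondrially encoded mRNAs fell in all cases under both conditions, with medians of -0.66 and -0.56. edgeR called 0 of their interactions, against 18.6% of all genes, as did DESeq2 and limma-voom, with 3 at an unadjusted p under 0.05. Without Cisplatin replicate 3 edgeR called 3 of the 13, and without Saline replicate 1 it called 1. Mitochondrial transcripts took 13.9 to 15.6% of counts without cisplatin, 11.4 to 12.2% with cisplatin and 12.02 to 12.5% with the combination.

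The proximal tubule transport list had calls for 41 of 52 genes, all positive, against 11.4% of all genes. Its median response was -1.03 log2 without and -0.50 with dichloroacetate. Slc34a1, the main phosphate cotransporter, was at 3604, 3594 and 3974 CPM with saline, 3260, 3267 and 3548 with dichloroacetate, 830, 799 and 916 with cisplatin, and 1515, 1384 and 1563 with the combination. All combination libraries lay above all cisplatin libraries and below all others (interaction 0.96 ± 0.09, adjusted p = 6.98e-05). Cubn, the endocytic receptor cubilin, had an interaction of 1.55, Slc13a2, a citrate transporter, of 1.49, Slc7a7, a basolateral amino acid transporter subunit, of 1.14, and the related organic anion transporter genes Slc22a28 and Slc22a30, which may share reads, of 1.05 each.

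The fixed markers of proximal tubule cells, several of which are on the transport list, moved with these genes. Of 14 such markers 13 had a positive interaction, against 11.4% of all genes. The summed level was 38750 to 43380 CPM with saline, 42820 to 45810 with dichloroacetate, 12530 to 15050 with cisplatin and 18660 to 22470 with the combination. The largest part of each sum was Kap, a marker named after its values were seen. Kap was at 6716, 9098 and 7553 CPM with cisplatin and 10010, 8851 and 11150 with the combination, which overlap. Markers of other tubule segments had fewer calls, though not below the 18.6% of all genes. The loop of Henle and distal tubule had 3 positive and 1 negative of 15, and the collecting duct 4 of 15, all positive. Over all genes 11.4% were positive and 7.15% negative. Podocyte markers had 1 of 13, Nes (-0.50). The loop and distal markers with calls were Slc12a3, Cldn10, Pvalb and, at under 0.5 CPM, Cldn14, and those of the collecting duct were Aqp3, Hsd11b2, Scnn1a and Scnn1b, and these and Nes are named after their values were seen. The Cldn14 call was lost without Dichloroacetate replicate 3, and the Nes call without Cisplatin replicate 2, Cisplatin+Dichloroacetate replicate 1, Dichloroacetate replicate 1 or Saline replicate 2. edgeR, DESeq2 and limma-voom each called 0 of 14 endothelial, 0 of 14 fibroblast and smooth muscle and 0 of 8 erythroid markers. They also called 0 of 3 adrenal cortex and 0 of 5 hepatocyte markers. Of all these markers 0 had an unadjusted p under 0.05, while 18.6% of all genes had a called interaction. In Saline replicate 2 the adrenal marker Cyp11a1 was at 0.844 CPM and the hepatocyte marker Alb at 6.38, above every other library. Both are named after their values were seen. The 9 tested adipocyte markers had 1 negative call, Cidec, which DESeq2 and limma-voom did not make and which was lost without any of 10 libraries, all but Cisplatin+Dichloroacetate replicate 1 and Dichloroacetate replicate 2. The adipocyte list summed to 376 to 472 CPM with saline, 393 to 505 with dichloroacetate, 131 to 147 with cisplatin and 154 to 185 with the combination, and most of each sum was Lpl, lipoprotein lipase, which other kidney cells also express. Adipoq, adiponectin, a defining adipocyte marker, was at 0.908 CPM in Dichloroacetate replicate 1, 0.862 in Dichloroacetate replicate 3, 0.386 in Cisplatin replicate 2, 0.625 in Cisplatin replicate 3 and 1.04 in Cisplatin+Dichloroacetate replicate 1. It was at most 0.0885 CPM in the other 7 libraries. How far cell numbers take part in the interaction was not tested.

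Genes that carry cisplatin into, out of and through tubule cells had 8 positive interactions among 16 genes and 1 negative, against 11.4% and 7.15% of all genes. Slc22a2, which encodes the basolateral cisplatin importer OCT2, was at 310, 335 and 344 CPM with saline, 349, 317 and 350 with dichloroacetate, 161, 172 and 190 with cisplatin, and 253, 224 and 269 with the combination. Every combination library lay above every cisplatin library (interaction 0.47 ± 0.11, adjusted p = 0.0101). Slc47a1, the apical exporter MATE1, had an interaction of 0.55, Ggt1, the gamma-glutamyltransferase of conjugate bioactivation, of 0.47 and Abcc6, an efflux transporter, of 1.504. The negative call was Abcc2, the efflux pump MRP2, which rose by 1.65 log2 without and 0.93 with dichloroacetate (interaction -0.72).

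The most positive interactions named on size belonged mostly to genes that fell steeply after cisplatin. Slc25a21, a mitochondrial oxoadipate carrier, was at 21.9, 24.1 and 22.7 CPM with saline, 20.1, 19.5 and 20.7 with dichloroacetate, 0.341, 0.386 and 0.775 with cisplatin, and 3.64, 2.88 and 2.22 with the combination. All combination libraries lay above all cisplatin libraries and below all others (interaction 2.68 ± 0.28, adjusted p = 7.53e-05). Ksr2, a scaffold of the MAP kinase cascade, was at 1.31, 1.07 and 2.08 CPM with cisplatin and 8.42, 6.71 and 7.74 with the combination (interaction 2.47 ± 0.25). Snx29, a sorting nexin, had an interaction of 1.84 and Ldlrad3, an LDL receptor class A domain protein, of 1.69, each without overlap. Igfbp1, a growth factor binding protein, had 1.65 ± 0.38, and its cisplatin values of 2.58, 1.75 and 2.55 CPM overlapped the combination values of 3.51, 2.28 and 3.72. It averaged 16.2 CPM with saline and 7.08 with dichloroacetate. Its dichloroacetate effect was -1.20 log2 without cisplatin (adjusted p = 0.0560) and 0.45 with it (adjusted p = 0.292), neither called.

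Several of these genes span long stretches of the genome: Slc25a21 lies at chr12:56712634-57197472, Ksr2 at chr5:117414000-117775003 and Snx29 at chr16:11322908-11755472. Over the 19824 tested genes with a position, the median response without dichloroacetate fell with gene span, from 0.13 log2 in genes of at most 5 kb to -1.39 in those over 400 kb. With dichloroacetate those medians were 0.08 and -1.03. The median interaction was -0.01 up to 5 kb, 0.07 from 50 to 100 kb, 0.24 from 100 to 200 kb, 0.36 from 200 to 400 kb and 0.30 beyond. Positive calls made up 5.19% of the shortest bin, 38.3% of the 538 genes of 200 to 400 kb and 22.2% of the 243 longest genes, where negative calls made up 0.412%. Dichloroacetate without cisplatin had a median of -0.01 in the longest bin. On a list of 18 tested long genes, chosen with earlier results of these data known, 7 had a called interaction, all positive, against 11.4% of all genes. Among them were Ptprd, a receptor phosphatase (1.26), Nfia, a nuclear factor (1.10), and Esrrg, an oestrogen-related receptor (1.01). Fhit, a fragile site gene of more than 400 kb, was at 0.0852, 0.0892 and 0.125 CPM with cisplatin and 0.163, 0.217 and 0.274 with the combination, and its value of 1.118 ± 0.41 did not pass the test (adjusted p = 0.108).

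**Figure D5:**
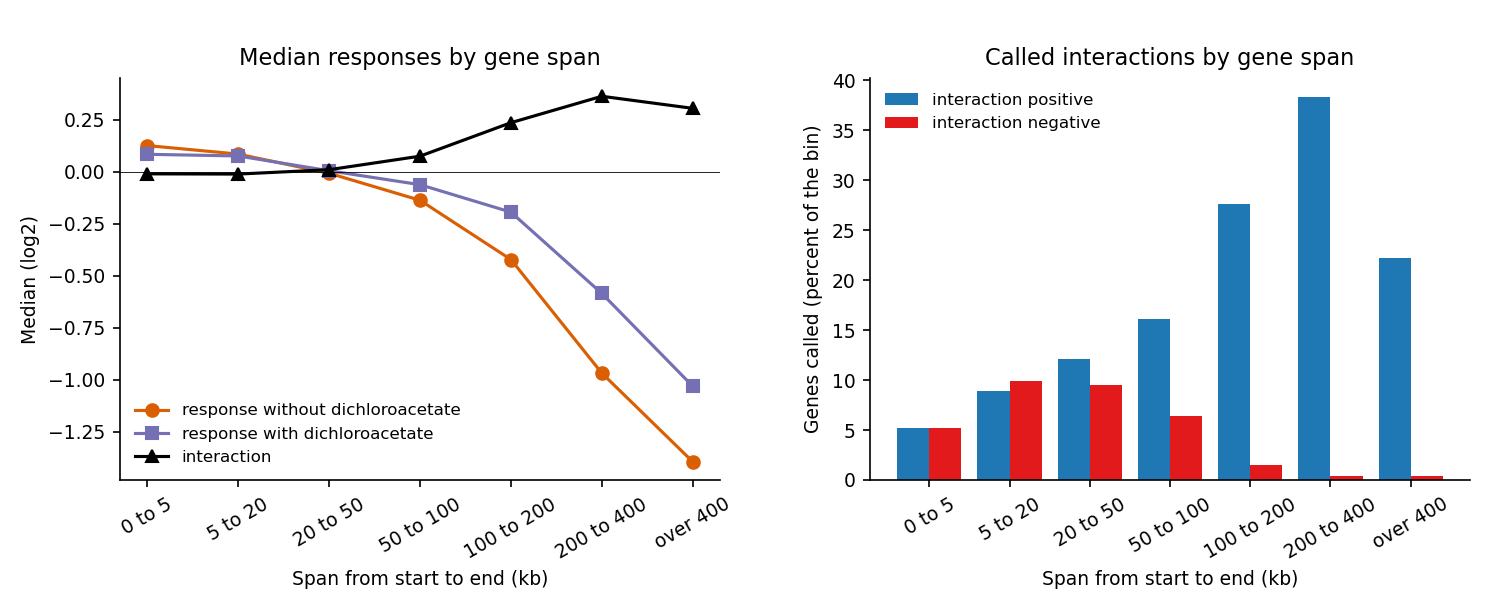
Left, median log2 responses and interaction (vertical axis) by gene span in kb (horizontal axis). Right, percent of the genes in each bin with a positive or negative interaction. The median interaction rises from -0.01 in the shortest bin to 0.36 at 200 to 400 kb, where 38.3% of genes had a positive call and 0.372% a negative one.

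For 108 genes the cisplatin responses had opposite signs, of which 97 fell without and rose with dichloroacetate. The count was 65 without Cisplatin+Dichloroacetate replicate 1. Hao2, a peroxisomal hydroxyacid oxidase, was at 418, 388 and 394 CPM with saline, 302, 336 and 373 with dichloroacetate, 243, 274 and 327 with cisplatin, and 659, 653 and 625 with the combination. The combination libraries were higher than all 9 others (interaction 1.44 ± 0.14, adjusted p = 6.34e-05). Bhmt, betaine-homocysteine methyltransferase, was at 7.97, 8.98 and 8.20 CPM with saline, 3.84, 5.05 and 4.96 with dichloroacetate, 4.57, 4.73 and 5.80 with cisplatin, and 11.6, 8.48 and 14.4 with the combination (interaction 2.06 ± 0.24). Here dichloroacetate and cisplatin were each lower than saline when given singly, though the dichloroacetate effect of -0.87 did not pass the test (adjusted p = 0.0560). Kynu, kynureninase (1.99), Pla2g5, a secreted phospholipase (1.58), Dhrs3, a retinaldehyde reductase (1.31), and Nav2, a neuron navigator (1.25), completed the named genes of this kind. Cyp24a1, the vitamin D 24-hydroxylase, was at 214, 187 and 183 CPM with cisplatin and 403, 252 and 391 with the combination, above 48.8, 42.9 and 63.7 with dichloroacetate and 43.0, 116 and 179 with saline. Its response was called with dichloroacetate alone (2.75 against 0.79), with an interaction of 1.96 ± 0.50 (adjusted p = 0.0159) and a spread among saline libraries of more than 4 times.

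A larger response with dichloroacetate was called for 55 genes, and for 24 or 25 without Cisplatin replicate 1 or 2, 34 or 33 without Cisplatin+Dichloroacetate replicate 1 or 3 and 30 without Saline replicate 2. Npl, a sialic acid lyase, was at 47.8, 44.9 and 54.8 CPM with cisplatin and 63.7, 63.7 and 69.9 with the combination, against 13.5, 13.4 and 15.7 with saline and 11.9, 10.8 and 9.92 with dichloroacetate. It rose by 1.80 log2 without and 2.59 with dichloroacetate (interaction 0.80 ± 0.12). Slc13a1, a sulfate transporter of the proximal tubule, rose by 0.95 and 1.69 (interaction 0.74), Hacl1, a peroxisomal lyase, by 0.26 and 0.99 (0.74), and Dcdc2a, a doublecortin domain gene, by 0.38 and 1.14 (0.76). Each had all combination libraries above all cisplatin libraries.

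A small group had an interaction through the dichloroacetate arm without cisplatin. Pzp, an alpha-2-macroglobulin relative, was at 159, 158 and 154 CPM with saline and 89.3, 86.2 and 95.8 with dichloroacetate, while cisplatin (22.2, 21.4 and 22.7) and the combination (23.6, 19.9 and 20.9) overlapped. Its interaction was 0.75 ± 0.09 (adjusted p = 0.000191). Malat1, a nuclear long noncoding RNA, was at 482, 473 and 422 CPM with saline, 711, 722 and 744 with dichloroacetate, 964, 980 and 952 with cisplatin, and 834, 836 and 1044 with the combination. It rose with dichloroacetate without cisplatin, the cisplatin-treated groups overlapped, and the interaction was -0.76 ± 0.11. Dpys, dihydropyrimidinase, fell with dichloroacetate by 1.73 log2 (interaction 1.46) and Cldn1, a tight junction claudin, by 0.58 (interaction 0.60), while Nhp2, a small nucleolar RNA protein, rose by 0.44 (interaction -0.60). Odc1, the polyamine synthesis enzyme, was at 322, 501 and 505 CPM with saline, 956, 685 and 821 with dichloroacetate, 337, 337 and 327 with cisplatin, and 369, 330 and 387 with the combination. Its interaction of -0.77 (adjusted p = 0.0209) was lost without Dichloroacetate replicate 1 (-0.65, adjusted p = 0.0547) or Cisplatin+Dichloroacetate replicate 2 (-0.71, adjusted p = 0.0542).

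Apoptosis and regulated necrosis had 1 called interaction in 29 genes, against 18.6% of all genes. It was that of Bmf (0.58, adjusted p = 0.0486), which was lost without Saline replicate 1 or 3, any dichloroacetate library, Cisplatin replicate 1 or 2 or Cisplatin+Dichloroacetate replicate 1 or 2 (0.44 to 0.63, adjusted p up to 0.138). It was also lost with limma-voom, no filter, the replicate block, upper quartile scaling and library totals, the last of which called 4 other genes of the list, all negative. Cytosolic ribosomal protein genes rose in 43 of 52 cases without dichloroacetate and 40 with it. Of these 52, 1 had a called interaction, Rpl12 (-0.31), against 18.6% of all genes. That call was lost without Cisplatin replicate 2 (adjusted p = 0.0581) or Cisplatin+Dichloroacetate replicate 1 (adjusted p = 0.0613). Glycolysis and lactate genes had 3 positive and 2 negative calls in 27, near the 18.6% of all genes, with a median interaction of 0.05 that became -0.04 under scaling by library totals. The negative calls were Pklr, pyruvate kinase (-0.54), and Slc16a3, a lactate exporter (-1.24), and the positive ones included Pfkm (0.58) and Pfkfb1, the second named after its values were seen. The positive count was 5 without Saline replicate 1. Sterol synthesis had 4 in each direction among 23, where 11.4% of all genes were positive and 7.15% negative. The negative ones included the enzymes Sqle and Msmo1. The positive ones included Nsdhl, the transport gene Stard4 and Cyp51, the last named after its values were seen. Without Cisplatin replicate 1, Cisplatin+Dichloroacetate replicate 1 or Dichloroacetate replicate 1 the negative count was 2. Its median of 0.04 became -0.05 under scaling by library totals.

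Among the most abundant genes with a called interaction, those given here had values from 0.22 to 1.11 log2. The median size of a called interaction was 0.52. Gpx3, the secreted glutathione peroxidase made by the proximal tubule, was at 16620, 17820 and 19650 CPM with saline, 16010, 17010 and 18050 with dichloroacetate, 10910, 10920 and 11930 with cisplatin, and 14660, 13480 and 16100 with the combination. All combination libraries lay above all cisplatin libraries (interaction 0.47 ± 0.11, adjusted p = 0.00857). Acsm2, a medium-chain acyl-CoA synthetase, averaged 5910, 6214, 1742 and 2835 CPM in the same order of groups (interaction 0.63), Slc27a2, a fatty acid transporter, 3825, 3924, 757.5 and 1678 (interaction 1.11), and Cyp4b1, a male-biased cytochrome P450, 3664, 3570, 1120 and 1822 (interaction 0.74). Atp5b, an ATP synthase subunit, had 0.22 (adjusted p = 0.0417), a call lost without any of 9 libraries and under 3 other settings (0.13 to 0.22, adjusted p up to 0.141).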

How the data were processed

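Gene counts from 12 mouse kidney RNA libraries were analysed as the authors deposited them, a whole-number count per gene and library. The submitters' processing notes name Trimmomatic, TopHat, Cufflinks, HTSeq, bedtools, DESeq and the build mm10. Their settings, versions and the strand setting of the counting are not given in the sources used here, so a gene and its antisense partner cannot be told apart, and close paralogs may share reads. A deposited normalised table was not used.

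Of 28991 identifiers 27955 matched GENCODE M21, which gave symbols and positions (GRCm38). Counts were filtered with edgeR's filterByExpr, scaled by TMM and fitted over all 4 groups with the quasi-likelihood test of edgeR 4.0.16 (limma 3.58.1, R 4.3.3). Adjusted p-values are Benjamini-Hochberg values of this 2-sided test over all genes tested, with a threshold of 0.05, and every adjusted p in the text comes from edgeR unless another tool is named. Errors of log2 values are standard errors, the absolute log2 value divided by the square root of F. The fit had 8 residual degrees of freedom and a common biological coefficient of variation of 0.0917. The code was tested on simulated data.

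Replicates of a group differed by more than sampling noise (chi-square per degree of freedom 4.40 to 26.3). The replicate numbers were not used as pairs in the main fit. Same-numbered libraries of different groups had correlations of deviations from -0.095 to 0.152, with 4 of 18 above 0.1. Other pairs had -0.215 to 0.187. Whether the numbers mark a shared batch cannot be told from these values.

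The lists, panel and members were chosen with earlier results of these data known. Named genes were those with a called interaction and at least 5 CPM in a group's mean that had the largest interactions: 10 in each direction, 6 with opposite responses, 6 with a larger response and 6 called for dichloroacetate without cisplatin but not with it. The 6 most abundant called genes, the 4 of smallest p in each of 27 pathway lists and a fixed panel were added. Some genes that this rule chose are not reported here. Of 922 list entries 10 were unmatched. Alternatives were other scalings, DESeq2 1.42.0, limma-voom, other filters, a replicate block and leaving out each library.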

Additional observations from a re-analysis of the deposited data

Results flagged for a closer look

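For each gene below the effect of one drug differed with the presence of the other by the interaction test of edgeR. The cisplatin responses had opposite signs for Bhmt (interaction 2.0554 log2), Kynu (1.9874), Pla2g5 (1.581), Hao2 (1.4438), Dhrs3 (1.3127) and Nav2 (1.2463). The response was larger with dichloroacetate for Npl (0.7957), Dcdc2a (0.7639), Hacl1 (0.7396), Slc13a1 (0.7351) and Odc1 (-0.773). Dichloroacetate had a called effect without cisplatin, and none called with it, for Dpys (1.4643), Pzp (0.7501), Cldn1 (0.5983), Nhp2 (-0.5959), Malat1 (-0.7552) and again Odc1.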

How the results depend on the processing

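Of 131 named genes with a called interaction 120 kept the call in every planned fit, and none of the 131 reversed. Positive calls numbered 1538 to 2607 and negative calls 1041 to 1606 when one library was left out. Scaling by library totals gave 2383 negative calls, 9749 genes up and 3596 down after cisplatin without dichloroacetate, 8458 up and 2225 down with it, 2317 up and 5134 down for dichloroacetate with cisplatin, and 104 down without cisplatin. For dichloroacetate without cisplatin DESeq2 gave 187 up and 163 down, and no filter gave 55 and 64. The fit with a replicate block gave 56 and 61 there, 2466 positive and 1503 negative interactions, and moved no other count by over 1.5 times; 6 of 12 libraries correlated best with their own number. With one library left out, dichloroacetate without cisplatin raised 5 to 72 and lowered 7 to 54 genes. The count of larger responses was then 24 to 53, of opposite ones 65 to 128, of responses called without dichloroacetate alone 947 to 1556, and with it alone 128 to 234. The cause was not tested. Depth was lower in every library with cisplatin, and 3 libraries a group limit precision.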

Other observations

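Clock genes also had called interactions, 5 positive and 2 negative among 19, against 11.4% and 7.15% of all genes. Cry1, a repressor of the clock, rose by 2.54 log2 after cisplatin without and 0.67 with dichloroacetate (interaction -1.88 ± 0.14), and dichloroacetate without cisplatin raised it by 0.98. The transcription factors Hlf (1.34), Nr1d1 (0.78) and Tef (0.61) had smaller falls. The positive count was 3 without Cisplatin replicate 1 or 2, Cisplatin+Dichloroacetate replicate 2 or 3, or Saline replicate 2. The labels used here give no time of day.

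Male-biased kidney genes, many of them androgen-dependent, fell in 17 of 18 cases without and 16 with dichloroacetate, with medians of -1.74 and -1.23. A positive interaction was called for 10, against 11.4% of all genes, among them the keto-steroid reductase relative Akr1c21 (1.02). One of the 18, Odc1 (-0.77), had a negative interaction and 7 had none that was called. Cell cycle genes had 3 calls in each direction among 33, a share near the 18.6% of all genes, so the count is no result about the list. Single members are given as values. Ccnd1, cyclin D1, fell by 1.74 log2 without and 0.70 with dichloroacetate (interaction 1.05 ± 0.10), while Rrm2, a ribonucleotide reductase subunit, had an interaction of -1.03. The positive count was 1 without Cisplatin replicate 1 or 2, Cisplatin+Dichloroacetate replicate 1 or 3, Dichloroacetate replicate 1 or Saline replicate 2 or 3, and the negative count was 6 without Dichloroacetate replicate 3 and 5 without Cisplatin replicate 3 or with DESeq2.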
